A study of Mus musculus with 3 samples.

Results

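The comparison is of microRNA (miRNA) levels in mouse BMDCs, dendritic cells derived from bone marrow, kept beside CT-26 tumour cells, against control BMDCs. Dendritic cells are antigen-presenting cells of the myeloid lineage, and BMDCs are grown from marrow precursors in culture. CT-26 is a mouse colon carcinoma line. In the co-culture the BMDCs shared medium with the tumour cells for 24 h across the membrane of a transwell plate, in medium with 3% fetal calf serum and antibiotics. The control was BMDCs with no tumour cell named in its label, and its plate, serum and time are not given in the sources used here, so tumour cells and culture conditions cannot be told apart. The series has 1 further group, BMDCs beside the ovarian line ID8, which is used here only for values set side by side. The strain, age and number of mice behind each culture are not given. Each group was 1 array, so no test across samples was possible, and every ratio describes those arrays only.

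Of 568 mouse miRNA names on the array, 158 had a background-corrected intensity of at least 50 units both on the CT-26 array and on the control array. For these the log2 ratio of the authors' normalized intensity, CT-26 over control, is given as measured. The normalized intensity is the corrected intensity in multiples of a constant for each array, 335.25 units for CT-26 and 325 units for control. A further 18 names reached 50 units on the CT-26 array alone and 16 on the control array alone. Their ratios are bounds, set against the lowest mouse intensity that reached 50 units on the dim array. The other 376 names were below 50 units on both arrays. At that minimum, let-7d* was just inside with 50 units and miR-24 just outside with 46.25 units on the CT-26 array, while on the control array miR-488* had 50.25 units and miR-155 had 49.5 units. The brightest of 8 negative control probes read 52 units on the CT-26 array and 59 units on the control array, against at most 2.25 and 6 units in 21 empty spots. Readings from 50 up to these values are therefore within what a negative control probe gave on that array. Whether brighter readings came from the miRNA named was not tested.

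MicroRNAs are short RNAs that pair, mainly through bases 2 to 8 (the seed), with sites in messenger RNAs and reduce their translation and stability. A hairpin precursor yields a 5p and a 3p arm, and in the older names used on this array the less abundant arm carries an asterisk. In dendritic cells and macrophages, miR-155 and miR-146a are induced by Toll-like receptor and NF-kB signalling, miR-142 and miR-223 come from genes active in blood cells, and miR-21 and miR-22 are abundant. The mature sequences of 4 of those that lead the comparison are shown with their seeds in capitals, as listed by RefSeq for build GRCm38.p6.
miR-22: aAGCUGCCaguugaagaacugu
miR-21: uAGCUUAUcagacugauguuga
miR-146a: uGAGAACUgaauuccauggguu
miR-155: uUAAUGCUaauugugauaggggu
Their seeds all differ, so these miRNAs are not members of 1 seed family.

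In the CT-26 co-culture, 21 of the 158 measured miRNAs (13.3%) were higher by 2-fold or more and 11 (6.96%) were lower by as much, together 20.3%. The median log2 ratio was 0.0072, the quartiles were -0.41 and 0.49, and 83 miRNAs stood within 0.5 of 0. Ratios above 0 made up 51.3% of the 158. At least 4-fold differences were few, with 3 miRNAs higher and 2 lower. Bounds added 6 of 18 names at least 2-fold higher (33.3%) and 5 of 16 at least 2-fold lower (31.2%). For comparison, 157 probes with no name were measured on both arrays, of which 6.37% passed 2-fold upward and 5.10% downward, with a median log2 ratio of 0.05.

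**Figure D1:**
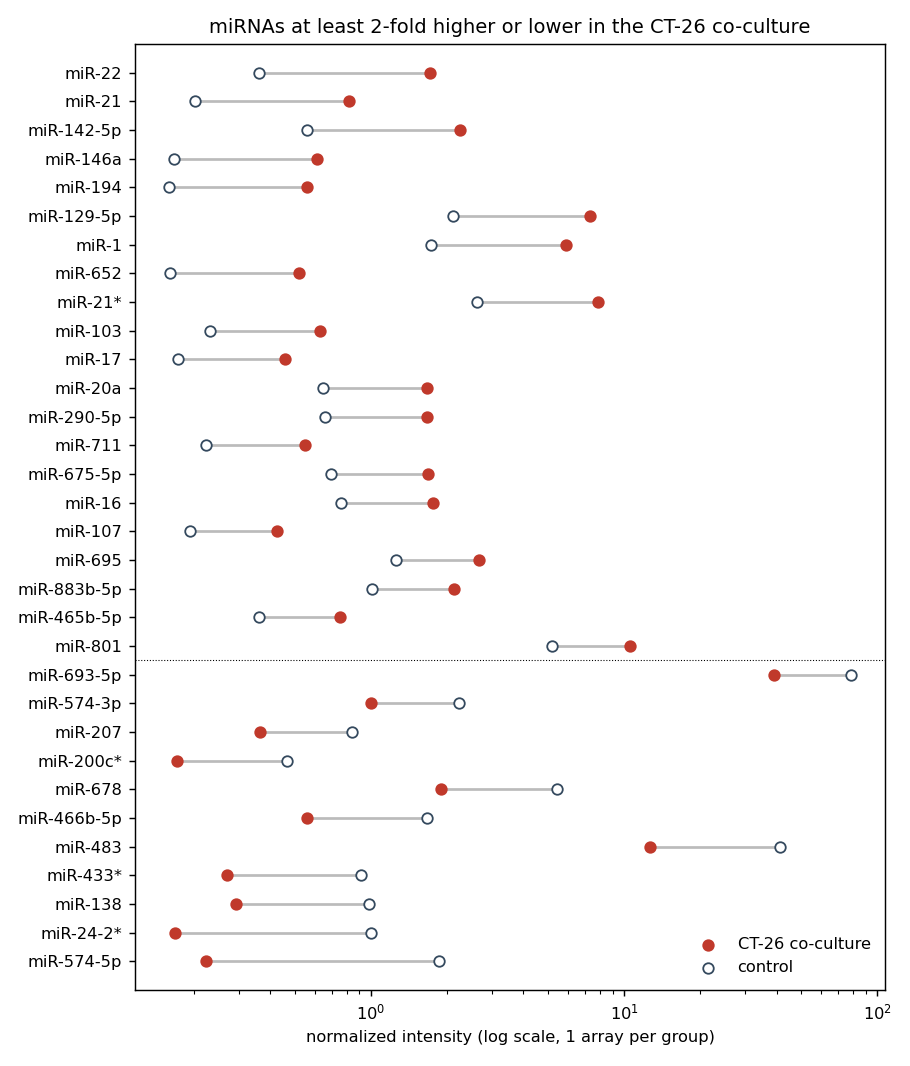
Normalized intensity (log scale) of the 32 miRNAs at least 2-fold higher or lower, on the CT-26 array (filled) and the control array (open), 1 array each and so without error bars, sorted by ratio. miR-22 tops the 21 higher ones at 4.72-fold, and miR-574-5p is the lowest of the 11 lower ones at 8.36-fold lower.

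Myeloid and inflammation-linked miRNAs led the higher side. miR-22 had a normalized intensity of 1.70 in the CT-26 co-culture and 0.362 in the control, 4.72-fold higher. miR-21, which dampens several inhibitors of growth and inflammation signalling, had 0.819 in the CT-26 co-culture and 0.202 in the control, 4.06-fold higher. miR-142-5p had 2.24 in the CT-26 co-culture and 0.558 in the control, 4.02-fold higher. These were the 3 miRNAs past 4-fold.

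miR-146a, a feedback inhibitor of NF-kB signalling, had 0.611 in the CT-26 co-culture and 0.167 in the control, 3.66-fold higher, and its control reading was 54.25 units. miR-146b, which shares its seed, had 104.25 units in the CT-26 co-culture and 33.5 units in the control, at least 2.01-fold higher. miR-155 had 201.5 units in the CT-26 co-culture and 49.5 units in the control, at least 3.89-fold higher. Each of these was near or below 60 units in the control, so the size of its ratio depends on a weak control reading. miR-223 had 125.5 units in the CT-26 co-culture and 49 units in the control, at least 2.42-fold higher.

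Of 17 miRNAs listed for myeloid and dendritic cells, 7 were measured, of which 5 passed 2-fold upward and 0 downward, against 13.3% and 6.96% of all measured miRNAs. The list's median log2 ratio was 1.87, or 1.24 with its 5 bounds included. Of these bounds, 4 reached the minimum on the CT-26 array alone and could hardly lie below 0. The other 1 reached it on the control array alone and could hardly lie above 0. The median with bounds is therefore not a further reading of the list's direction. The list's median was 1.20 over 5 members with a minimum of 100 units, 0.30 over 3 members with 200 units, and 0.79 over all 17 with no minimum. miR-142-3p, at -0.41, and miR-34a, at 0.30, were the measured members that did not reach 2-fold. The list for NF-kB and Toll-like receptor signalling had 4 measured members of 13 with a median of 1.05. Of these, miR-146a and miR-21 passed 2-fold upward, where 13.3% of all measured miRNAs did. Both are also in the myeloid list, as are miR-155 and miR-146b, so these lists are not separate readings. The measured members outside the myeloid list were miR-125a-5p at -0.19 and let-7e at 0.22. With a minimum of 100 units miR-146a and miR-21 drop out, and the median of the 2 members left was 0.012. Scaled to the U6-snRNA-2 probe, whose own log2 ratio was 1.07, the medians of these lists were 0.80 and -0.03, and scaled to SNORD3@ they were 1.44 and 0.62. The lists were drawn up with earlier results of these data known, so their direction is a description.

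Besides the myeloid miRNAs, several probes for miRNAs of other tissues were bright on both arrays and brighter on the CT-26 array. miR-129-5p, a brain miRNA, had 7.30 in the CT-26 co-culture and 2.10 in the control, 3.48-fold higher. miR-1, a muscle miRNA, had 5.91 in the CT-26 co-culture and 1.73 in the control, 3.41-fold higher. miR-290-5p, of an embryonic stem cell cluster, had 1.67 in the CT-26 co-culture and 0.657 in the control, 2.54-fold higher. Neighbouring genes gave mixed readings. miR-133a and miR-133b, partners of miR-1 and miR-206 in muscle, read 1.5 and 5 units in the CT-26 co-culture. In the miR-290 cluster, miR-291a-3p, miR-292-3p, miR-294 and miR-295 read 4.5, 0.25, 5.75 and 0.75 units in the CT-26 co-culture, while miR-294* had 586.25 units in the CT-26 co-culture and 363.25 units in the control, a log2 ratio of 0.65. miR-206, a muscle relative of miR-1, had 40.5 units in the CT-26 co-culture and 121 units in the control, at least 2.50-fold lower. Of 28 array names listed for muscle, liver, nerve and germ cells, 6 were measured and 3 of these passed 2-fold upward, against 13.3% of all measured miRNAs. Above 0 lay 4 of the 6, where 51.3% of all measured miRNAs did. The members short of 2-fold were miR-184 at 0.35, miR-290-3p at -0.21 and the liver miRNA miR-122 at -0.28. The list's median log2 ratio was 0.85, which was 0.42 scaled to SNORD3@ and -0.22 scaled to U6-snRNA-2. With no minimum, 10 of the 28 lay above 0 and the median was -0.04. Whether the bright probes bound the miRNAs they are named for was not tested.

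miR-194, an intestinal and liver miRNA, had 187 units in the CT-26 co-culture and 51.75 units in the control, 3.50-fold higher, a control reading below that of the brightest negative control probe. Its genomic partners miR-192 and miR-215 read 7.25 and 16.5 units in the CT-26 co-culture. Of 15 epithelial and intestinal miRNAs listed, 2 reached 50 units on each array, miR-194 and miR-200b. miR-200b, which keeps cells epithelial by restraining Zeb factors, had 97.25 units in the CT-26 co-culture and 143.5 units in the control, a log2 ratio of -0.61. The summed normalized intensity of the list was 1.14 in the CT-26 co-culture and 1.02 in the control. The other 13 listed members stayed below 50 units on both arrays. The part of tumour cell RNA in these results was not tested.

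miR-652, made from an intron of an X-linked gene, had 173.75 units in the CT-26 co-culture and 52.25 units in the control, 3.22-fold higher, with the control again below the brightest negative control probe. miR-675-5p, cut from the H19 transcript, had 560.75 units in the CT-26 co-culture and 225.25 units in the control, 2.41-fold higher. miR-711 was 2.46-fold, miR-695 2.12-fold, miR-883b-5p 2.10-fold, miR-465b-5p 2.09-fold and miR-801 2.03-fold higher. Of the 21 higher miRNAs, 8 read under 100 units in the control and 10 read at least 200 units there. miR-509-5p, picked after its values were seen, had 97.25 units in the CT-26 co-culture and 0.5 units in the control, at least 1.88-fold higher. Among the other bounds, miR-674 had 121 units in the CT-26 co-culture and 44 units in the control, at least 2.33-fold higher. The 2 let-7i probes had 192.75 and 61.25 units in the CT-26 co-culture and 38.25 and 31.75 units in the control, together at least 2.10-fold higher.

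The 3 miRNAs measured with the miR-17 seed had log2 ratios above 0, where 51.3% of all measured miRNAs did. miR-93, also shown, reached 50 units on the CT-26 array alone, so its bound could hardly lie below 0. These 4 miRNAs come from the growth-promoting miR-17 to miR-92 cluster and its paralogs, and restrain cell cycle inhibitors such as Cdkn1a. Their sequences are shown because they differ by few bases, so that probes may share signal.
miR-17: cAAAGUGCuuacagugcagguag
miR-20a: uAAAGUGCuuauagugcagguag
miR-106b: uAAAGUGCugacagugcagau
miR-93: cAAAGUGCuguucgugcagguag
miR-20a differs from miR-17 by C1U and C12U, counted from 1 at the 5′ end of miR-17. miR-17 had 153.75 units in the CT-26 co-culture and 56 units in the control, 2.66-fold higher. That control reading was below that of the brightest negative control probe. miR-20a had 557.25 units in the CT-26 co-culture and 209 units in the control, 2.58-fold higher. miR-106b had 201 units in the CT-26 co-culture and 103.5 units in the control, a log2 ratio of 0.91, and miR-93 had a bound of 0.81. The paralogs miR-106a and miR-20b stayed below 50 units on both arrays. miR-106a read 29.25 units in the CT-26 co-culture and 33.5 units in the control, and miR-20b at most 44.5 and 27 units. Names with other seeds in the same clusters varied. miR-18a had 90.5 units in the CT-26 co-culture and 49.5 units in the control, a bound of 0.80, and miR-17* had 109.25 and 70 units, a log2 ratio of 0.60. miR-19a read 3.5 and 5 units and miR-25 read 3.75 and -4 units in the CT-26 co-culture and the control. Of 14 list members, 3 were measured, 2 were at least 2-fold higher, against 13.3% of all measured miRNAs, and their median log2 ratio was 1.37, which was 0.94 scaled to SNORD3@ and 0.30 scaled to U6-snRNA-2.

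The miR-15/16 seed gave a wider spread. These miRNAs restrain Bcl2 and cyclins, and 6 of them share the seed AGCAGCA on this array.
miR-16: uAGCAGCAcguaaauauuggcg
miR-15a: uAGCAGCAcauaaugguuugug
miR-195: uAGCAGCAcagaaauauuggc
miR-15b: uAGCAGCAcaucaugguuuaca
miR-497: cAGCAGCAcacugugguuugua
miR-322: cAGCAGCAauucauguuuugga
The log2 ratios, in the order printed, were 1.20, 0.65, 0.12, -0.33, -0.78 and -0.52, so 3 lay above 0 and 3 below. miR-16 had 588.75 units in the CT-26 co-culture and 248.25 units in the control, and was the member past 2-fold. miR-195 shares all but 2 positions of its length with miR-16 (G10A and U11G, counted from 1 at the 5′ end of miR-16), and had 162.5 units in the CT-26 co-culture and 144.75 units in the control. miR-503, which differs in its seed, had 2467.75 units in the CT-26 co-culture and 1271 units in the control, a log2 ratio of 0.91. The median of the 7 listed members was 0.12, and it was -0.31 scaled to SNORD3@ and -0.95 scaled to U6-snRNA-2.

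miR-103 and miR-107, encoded in introns of the Pank genes of coenzyme A synthesis, were both past 2-fold. Their sequences differ by a single change near the 3′ end, G22C from miR-103 to miR-107, and their probes may share signal.
miR-103: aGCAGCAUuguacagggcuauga
miR-107: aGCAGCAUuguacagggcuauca
miR-103 had 210.75 units in the CT-26 co-culture and 75.25 units in the control, 2.72-fold higher. miR-107 had 142 units in the CT-26 co-culture and 62.5 units in the control, 2.20-fold higher. On the ID8 array, which was set over the same control, their log2 ratios were 0.0045 and -0.22.

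The let-7 family, which restrains Ras, Hmga2 and Lin28 and accumulates as cells differentiate, had 6 measured members. All 6 had log2 ratios above 0, between 0.22 for let-7e and 0.81 for let-7d, and 0 of them reached 2-fold, where 51.3% of all measured miRNAs lay above 0. These members share a seed and their probes may share signal, so the 6 ratios may not be separate readings. The median was 0.52, 0.09 scaled to SNORD3@, where 3 of 6 were above 0, and -0.55 scaled to U6-snRNA-2, where 0 were. With quantile normalization it was 0.21, and 4 of 6 were above 0. let-7g had 1871.25 units in the CT-26 co-culture and 1117 units in the control, but a further probe of that name read 4.5 and 2 units. Likewise the other let-7d and let-7f probes read 8.75 and -2 units in the CT-26 co-culture, so these levels rest on 1 probe each.

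On the lower side, miR-574-5p had the widest ratio. It had 74.75 units in the CT-26 co-culture and 605.5 units in the control, 8.36-fold lower. The opposite arm, miR-574-3p, had 335.25 units in the CT-26 co-culture and 722 units in the control, 2.22-fold lower. The arms are shown because both were lower and because miR-574-5p is mostly U and G.
miR-574-5p: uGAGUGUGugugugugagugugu
miR-574-3p: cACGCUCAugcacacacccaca
The letters UGUGUG, searched on the mature strand only, occur in 4 of the 225 array miRNAs with a RefSeq sequence (1.78%), of which miR-574-5p was the 1 measured on both arrays.

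miR-24-2* had 56.5 units in the CT-26 co-culture and 323.75 units in the control, 5.91-fold lower, with the CT-26 reading close to the minimum. Its counterpart from the paralogous cluster, miR-24-1*, had 707.5 units in the CT-26 co-culture and 821.25 units in the control, a log2 ratio of -0.26. These are shown because their first 16 bases are identical and they differ after that.
miR-24-2*: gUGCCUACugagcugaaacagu
miR-24-1*: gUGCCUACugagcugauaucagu
The guide arm shared by both clusters, miR-24, had 46.25 units in the CT-26 co-culture and 55.75 units in the control, a bound of -0.20.

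miR-483, which lies in an intron of Igf2, had 4229.5 units in the CT-26 co-culture and 13376.5 units in the control, 3.26-fold lower. miR-678 had 633.75 units in the CT-26 co-culture and 1764.5 units in the control, 2.87-fold lower. miR-466b-5p, from a repeat-derived cluster within Sfmbt2, had 188 units in the CT-26 co-culture and 540.75 units in the control, 2.97-fold lower. miR-138 and miR-433*, which lies in the imprinted Dlk1-Dio3 region, were both 3.38-fold lower. The ratio of miR-138 comes from 1 of its probes, with 97.75 units in the CT-26 co-culture and 320.25 units in the control, while the other read 3.75 and 5 units. miR-200c*, the passenger arm of an epithelial miRNA, was 2.72-fold lower and miR-207 was 2.30-fold lower. miR-693-5p, among the brightest probes, had 13111.5 units in the CT-26 co-culture and 25610.8 units in the control, 2.01-fold lower.

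Besides miR-206, 4 names had bounds past 2-fold on the lower side. miR-28* had 22.75 units in the CT-26 co-culture and 179.5 units in the control, at least 3.70-fold lower. miR-708 had 40.75 units in the CT-26 co-culture and 119 units in the control, at least 2.46-fold lower. miR-370, of the Dlk1-Dio3 region, had 7.25 units in the CT-26 co-culture and 111.25 units in the control, at least 2.30-fold lower. miR-486 had 20 units in the CT-26 co-culture and 98.5 units in the control, at least 2.03-fold lower. miR-486 and miR-451 are erythroid miRNAs. miR-451 had 59.5 units in the CT-26 co-culture and 33.25 units in the control, both under 60 units, and no direction is read from it.

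**Figure D2:**
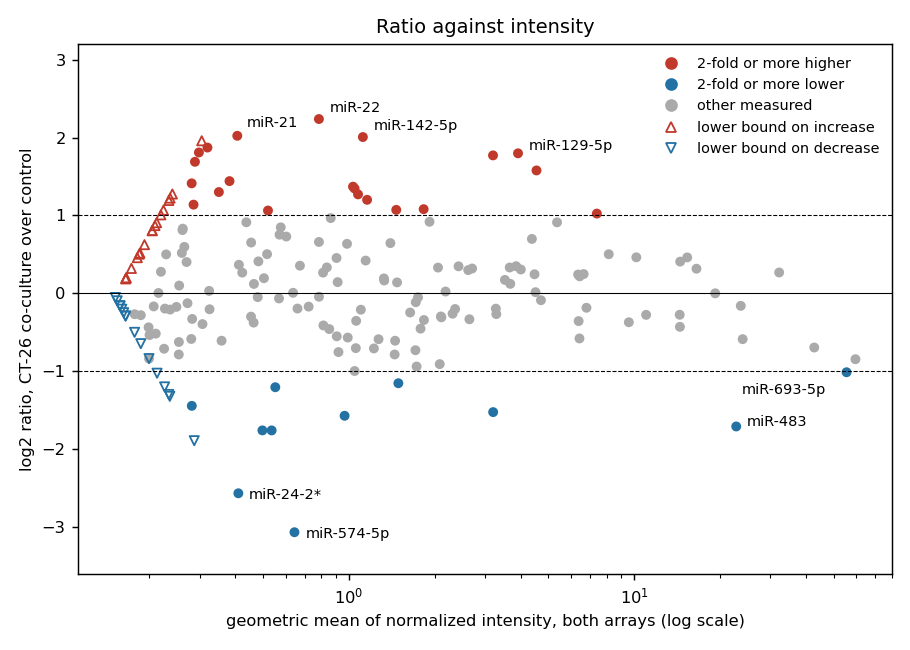
Log2 ratio, CT-26 over control, against the geometric mean of both normalized intensities (log scale) for 158 measured miRNAs (circles) and for 18 and 16 bounds (triangles). Dashed lines mark 2-fold, and differences past it occur at low and at high intensity.

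Ratios past 2-fold were found over the whole range of intensity. When the 158 miRNAs were split into 4 groups by mean normalized intensity, the dimmest group held 8 higher and 2 lower miRNAs of 40, and the brightest held 4 higher and 3 lower of 40. The groups between held 3 higher and 5 lower, and 6 higher and 1 lower, of 39 each. Among the 104 measured miRNAs with a RefSeq sequence, the third with the least G and C (27.3% to 45.5%) had a median log2 ratio of 0.33 with 6 higher and 0 lower of 35. The third with the most (50% to 75%) had a median of -0.20 with 5 higher and 5 lower of 35. The part of base composition in these ratios was not tested.

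Both arms were measured for 21 precursors, which allows a comparison within a transcript. The arms lay on the same side of 0 for 9 precursors and on opposite sides for 12, and the median distance between them was 0.80 on the log2 scale. In 9 precursors they were at least 1 apart. miR-21 and its passenger arm were both higher: miR-21* had 2633 units in the CT-26 co-culture and 855 units in the control, 2.99-fold higher. miR-22* by contrast had 81 units in the CT-26 co-culture and 64.75 units in the control, a log2 ratio of 0.28, beside 2.24 for miR-22. miR-142-3p had 236.75 units in the CT-26 co-culture and 305 units in the control, a log2 ratio of -0.41, beside 2.01 for miR-142-5p. The arms of miR-290, miR-106b and let-7d also parted, with 1.35 and -0.21, 0.91 and -0.62, and 0.81 and -0.84. miR-21 and miR-574 were the precursors with both arms past 2-fold.

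**Figure D3:**
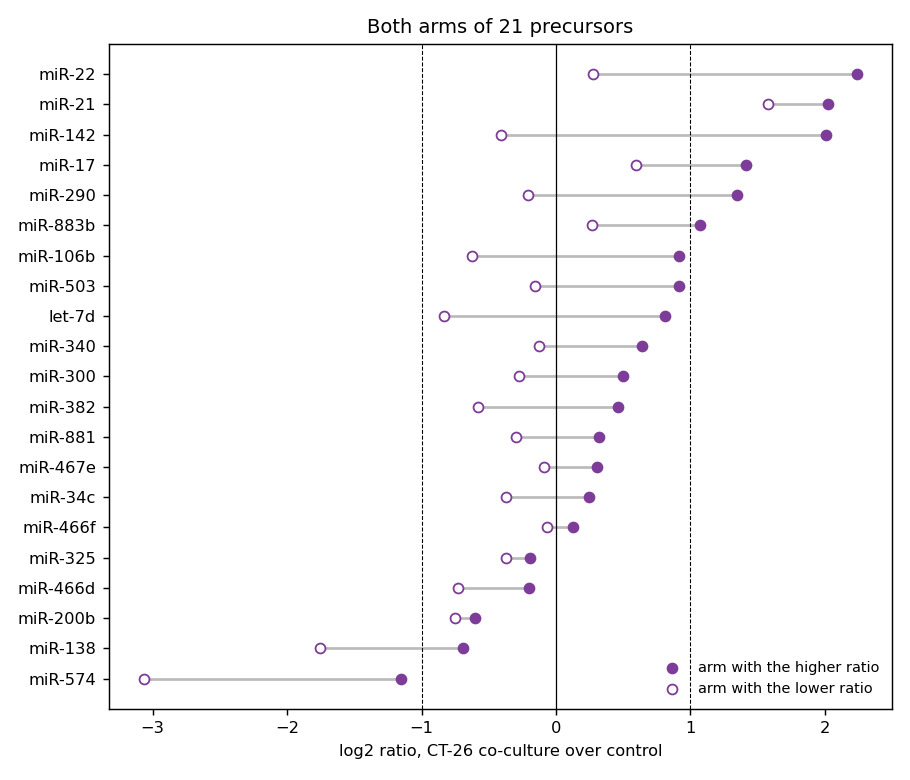
Log2 ratios, CT-26 over control, of both arms of the 21 precursors with both measured (filled, the arm with the higher ratio; open, the other), 1 array per group. The arms of miR-142 are 2.42 apart, the widest distance plotted, and those of miR-200b 0.15 apart.

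Neighbours in the genome, here miRNA genes within 10000 bases of the next, gave mixed pictures as well. In the miR-23a, miR-27a and miR-24-2 cluster, miR-27a had 118.5 units in the CT-26 co-culture and 33.75 units in the control, at least 2.29-fold higher, although miR-24-2* was 5.91-fold lower. miR-23a read 22.5 and 4 units, and miR-27a* 33.25 and 54.25 units, in the CT-26 co-culture and the control. In the X-linked miR-322, miR-351 and miR-503 cluster, the 4 measured names ranged from -0.52 to 0.91. The X-linked cluster of miR-465b, miR-881 and miR-883, whose miRNAs are best known from testis, was picked after its values were seen. Of its 7 measured names 5 lay above 0, where 51.3% of all measured miRNAs did. miR-465b-5p and miR-883b-5p passed 2-fold upward, where 13.3% of all measured miRNAs did. At the imprinted Igf2 and H19 genes, miR-483 had a log2 ratio of -1.71 and miR-675-5p of 1.27. Of 54 listed names of the Dlk1-Dio3 region, 14 were measured, of which 0 passed 2-fold upward and 1 (miR-433*) downward, against 13.3% and 6.96% of all measured miRNAs, with a median of -0.17, which was -0.60 scaled to SNORD3@ and -1.25 scaled to U6-snRNA-2.

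The Sfmbt2 cluster holds repeat-derived miRNAs. Of 24 listed names, 20 were on the array and 14 were measured, 4 of them above 0, where 51.3% of all measured miRNAs lay. In this list 1 miRNA was at least 2-fold lower, near the 6.96% of all measured miRNAs, with a median log2 ratio of -0.27, against 0.0072 for all measured miRNAs. This median was -0.69 scaled to SNORD3@ and -1.34 scaled to U6-snRNA-2. The 5p arms of miR-466a, miR-466b, miR-466c, miR-466d and miR-466f stood at -0.71, -1.57, -0.59, -0.73 and -0.06. The 3p arms of miR-466d and miR-466f stood at -0.20 and 0.12, and miR-466b-3-3p, which is not in the list, at -0.61. These names are closely related in sequence, and their probes may share signal.

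**Figure D4:**
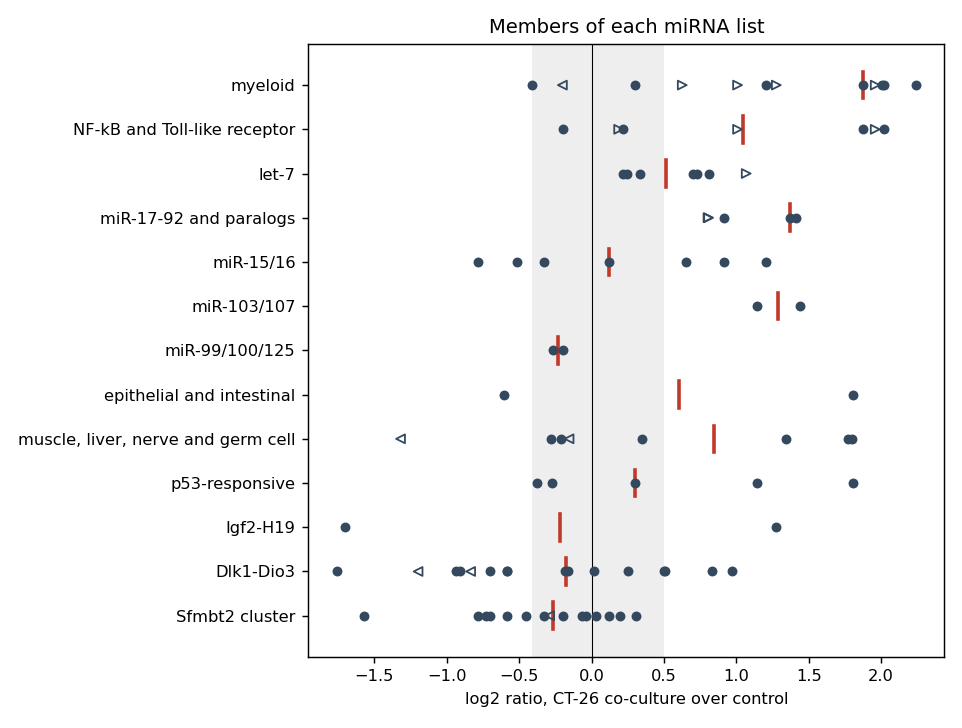
Log2 ratios, CT-26 over control, of the measured members (circles) and bounds (triangles) of 13 miRNA lists with at least 2 measured members, with the median of the measured members as a red line. The grey band spans the quartiles of all 158 measured miRNAs, -0.41 to 0.49. The 6 measured let-7 members all lie above 0, and the 7 measured myeloid members run from -0.41 to 2.24.

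Markers of other lineages were also read. Lymphocyte miR-150 read 45.5 units in the CT-26 co-culture and 47.5 units in the control, and of 8 lymphoid names miR-155 and miR-342-5p reached 50 units on the CT-26 array, miR-342-5p with 298.5 units in the CT-26 co-culture and 240.5 units in the control. Of 7 mesenchymal names on the array, miR-214 reached 50 units, with 314.75 units in the CT-26 co-culture and 389.25 units in the control, a log2 ratio of -0.35. The summed normalized intensity of the lymphoid list was 1.72 in the CT-26 co-culture and 1.22 in the control. Of these sums, miR-155, which is also in the myeloid list, made up 0.601 and 0.152. Below 50 units on both arrays were 6 of the 8 lymphoid names. The sums were 0.292 and 0.426 for the erythroid and megakaryocyte list, and 0.984 and 1.27 for the mesenchymal list. For the myeloid list the sum was 12.6 in the CT-26 co-culture and 6.29 in the control, with 11 and 8 of 17 names at 50 units or more. In a bulk sample, a change in the share of a cell type and a change in RNA per cell cannot be told apart. The smaller lists held 1 or 0 measured miRNAs: miR-29a stood at 0.40 and miR-30c at 0.33, and the hypoxia-induced miR-210 read 37.75 units in the CT-26 co-culture and 27.75 units in the control.

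Setting the ID8 array over the same control array gives values for the same miRNAs, and since both ratios share that control they are not independent. For miR-22 the log2 ratio was 2.24 for CT-26 and 2.29 for ID8, for miR-21 it was 2.02 and 2.09, and for miR-16 it was 1.20 and 1.16. miR-21* stood at 1.58 for CT-26 and 0.28 for ID8, miR-129-5p at 1.80 and 0.36, miR-483 at -1.71 and -0.13, and miR-574-5p at -3.06 and -0.78. None of these differences was tested, because each culture had 1 array.

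The counts depend on how the arrays are scaled. The U6-snRNA-2 probe had 5464.5 units in the CT-26 co-culture and 2521.75 units in the control, and SNORD3@ had 1243.75 and 895.25 units. A further U6 probe, U6-snRNA-1, went the other way but was dim. It read 36.5 units in the CT-26 co-culture and 61.5 units in the control. Scaled to U6-snRNA-2 the median of all measured miRNAs moved to -1.06, with miR-22 alone at least 2-fold higher and 83 miRNAs lower. Scaled to SNORD3@ it moved to -0.42, with 10 higher and 31 lower. SNORD2, with 262.5 units in the CT-26 co-culture and 352.5 units in the control, had a log2 ratio of -0.47, so the small RNA probes differed in direction. All directions above are therefore relative to the typical measured miRNA on each array.

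**Figure D5:**
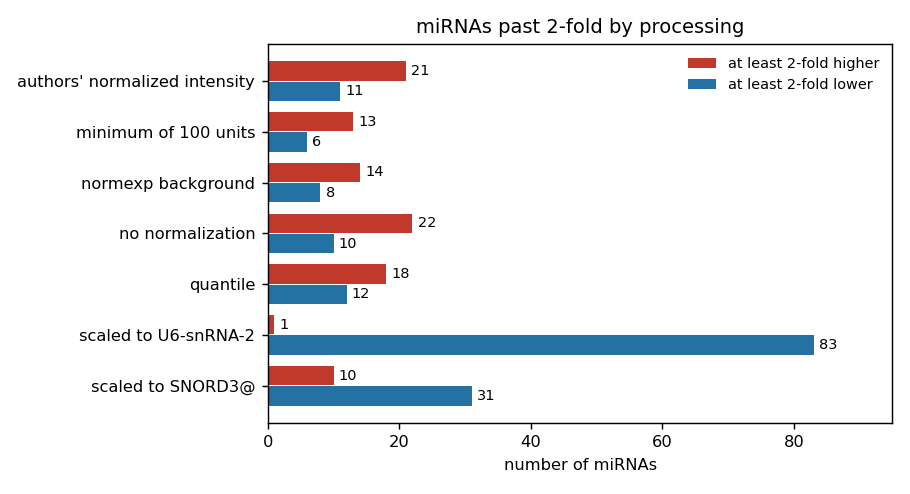
Number of miRNAs at least 2-fold higher (red) and lower (blue) in the CT-26 co-culture under 7 ways of processing the same arrays. The deposited normalization gives 21 and 11, and scaling to U6-snRNA-2 gives 1 and 83.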

How the data were processed

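Total RNA was labelled with the Hy3 dye and hybridised to miRNA arrays, which were read on a GenePix scanner, per the labels' protocols and the series' design text. The deposited table holds raw intensity, corrected intensity and normalized intensity for each of 1408 probes, per the file headers. Corrected intensity divided by normalized intensity was constant within an array, and the series matrix held the same normalized intensity. The rule for that constant and the averaging of spots are not given in the sources used here. Scaling each array to its median over mouse probes with at least 50 units on both arrays gave the same ratios as the deposited constants. Since the array files name no genome build, coordinates are left out. Gene neighbours come from RefSeq's GRCm38.p6 table.

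Ratios were computed from the authors' normalized intensity on the log2 scale (Python 3.11.15, pandas 2.3.3). Names entered when corrected intensity reached 50 on each array, and log2 values of several probes for 1 name were averaged. A call is a 2-fold difference. With 1 array per group no error, interval or test across samples exists, and the number of arrays limits the precision. The calculation was tested on simulated data. Alternatives included normexp background correction with an offset of 50 units (limma 3.58.1). RefSeq sequences of GRCm38.p6 were matched by name for 104 of the 158 measured miRNAs, where older names without an arm were assigned by hand to the arm they denoted. Named miRNAs were all those past 2-fold, all bounds past 2-fold, list members, other arms, seed relatives and the brightest probes. Members and lists were chosen with earlier results of these data known.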

Additional observations from a re-analysis of the deposited data

Results flagged for a closer look

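In 5 of the 32 miRNAs past 2-fold, the log2 ratio over the shared control had opposite signs beside CT-26 and beside ID8 cells, and the difference was not tested. The values were -1.52 for CT-26 and 0.05 for ID8 in miR-678, 1.02 and -0.25 in miR-801, 1.14 and -0.22 in miR-107, 1.27 and -0.09 in miR-675-5p, and 1.81 and -0.25 in miR-194. The negative ID8 ratios come from the array constants, since the corrected intensity itself was higher beside ID8 cells: miR-194 had 53.25 units beside ID8 cells and 51.75 units in the control, miR-107 had 65.75 and 62.5, miR-675-5p had 260 and 225.25, and miR-801 had 1738.25 and 1686. Signal was also seen in probes outside the mouse miRNAs. Of 157 measured probes with no name, 10 were at least 2-fold higher in the CT-26 co-culture, the highest with a log2 ratio of 2.29. Among 10 probes for miRNAs of a mouse herpesvirus, 5 reached 50 units on the CT-26 array and 6 on the control array, with log2 ratios between -0.48 and 0.36 in those measured on both. The brightest of them, mghv-miR-M1-4, had 4403.5 units in the CT-26 co-culture and 3323 units in the control. What these probes bound was not tested.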

How the results depend on the processing

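The main counts were 21 higher and 11 lower. With a minimum of 100 units they were 13 and 6, with 200 units 10 and 4, and with no minimum 81 and 73. Scaled to U6-snRNA-2 they were 1 and 83, and scaled to SNORD3@ 10 and 31, where 1.19% and 24.4% of calls were higher, against 65.6%; with no minimum it was 52.6%. Normexp background, which also added an offset of 50 units, gave 14 and 8. Raw intensity gave 14 and 8, and an offset of 50 units on the corrected intensity 15 and 9. No normalization gave 22 and 10, quantile normalization 18 and 12, and the common median, single probes and series matrix values 21 and 11 each. Under U6-snRNA-2 scaling the log2 ratio turned to -0.00732 for miR-465b-5p, -0.0463 for miR-801, and the median of the NF-kB and Toll-like receptor list to -0.0253. Of the 32 miRNAs past 2-fold, 17 (9 higher, 8 lower) stayed past it under all of the other 12 alternatives that measured them, but 11 of the 17 were too dim to be measured at a minimum of 100 or 200 units. The 9 were miR-1, miR-21, miR-21*, miR-22, miR-129-5p, miR-142-5p, miR-146a, miR-194 and miR-652, and the 8 were miR-24-2*, miR-138, miR-433*, miR-466b-5p, miR-483, miR-574-3p, miR-574-5p and miR-678. Several of the 12 alternatives could not change a call. The other minimums, the common median, single probes and series matrix values left the ratio of every called miRNA they measured unchanged. Scaling to SNORD3@ lowers every ratio by 0.43 on the log2 scale, so a lower call could not fail it. No paired analysis was possible because each group has 1 array.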

Other observations

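The brightest mouse probe on both arrays was miR-551b, with a normalized intensity of 44.5 in the CT-26 co-culture and 79.9 in the control. The next were miR-693-5p and, on the control array, miR-138*, which had 33.6 in the CT-26 co-culture and 54.4 in the control. Probes for miR-883a-5p, with 35.4 and 29.4, and miR-582-3p, with 19.2 in both, were also among the 10 brightest on each array. Intensities of different probes do not rank the amounts of their miRNAs. The probes named miR-185 read 4786.75 and 84.5 units in the CT-26 co-culture and 6249.5 and 93 units in the control, and their log2 ratios were -0.43 and -0.18. The paired miR-20b probes, both below 50 units, read 43 and 44.5 units in the CT-26 co-culture and 26.5 and 27 units in the control.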
